A study of Mus musculus with 4 samples.

Results

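SHP (small heterodimer partner, gene Nr0b2) binding was mapped in mouse intestine by chromatin immunoprecipitation followed by sequencing (ChIP-seq), and the regions described here are its wide peaks at the ends of single genes. The members were chosen by measured values: a summit no more than 1 kb from either end of a protein-coding gene, no second such gene within that distance, and a width of at least 1700 bp. The rule selected 366 of the 5775 wild-type peaks (6.34%), and these covered 782446 bp, or 12.6% of all bases under peaks. They lay at 366 different genes, which is 1.67% of the 21883 protein-coding genes in the annotation, whereas 2984 genes (13.6%) carried a narrower peak by the same distance rule. Of the 3419 peaks at the end of exactly 1 gene, 10.7% were 1700 bp or wider. Those shares are fixed by the rule and serve below as the background for counts of named genes.

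The tissue was jejunum and ileum of wild-type C57BL/6 mice and of SHP-KO mice, all aged 8 to 12 weeks, fasted for 12 h and then given normal chow again for 4 h. An SHP antibody was used for the immunoprecipitation in both genotypes. Each genotype had an immunoprecipitated and an input sample, drawn from 3 sets that each pooled 3 mice. A single peak list per genotype was analysed, so values of the separate sets, and any spread between them, are not given here, and no difference below has a test. The tissue held all cell types of the gut wall, and which of them gave rise to a peak cannot be told from these data.

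SHP is an orphan nuclear receptor with no DNA-binding domain of its own. It reaches chromatin through partner factors and recruits corepressors, and in the intestine and liver it is induced by bile acids after a meal. Most mammalian promoters of widely used or developmental genes lie in CpG islands, stretches rich in G, C and the CG dinucleotide that are usually unmethylated and that attract zinc finger proteins of the Sp and Klf families. Broad domains of active histone marks at promoters are known mainly from regulatory and cell identity genes.

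The promoters of the 5 widest peaks at a known gene start, of Tfeb and Ulk1, and of the peaks with the lowest and the highest CG ratio among those that hold the gene start are shown first, because promoter base composition differed between wide and narrower peaks in the values given below. Each line gives the 250 bases before the start, from RefSeq on GRCm38.p6, written 5′ to 3′ on the strand of the gene, with every CG dinucleotide in capitals. Irs2 lay at chr8:11008930-11009179 (minus strand), Mex3b at chr7:82867083-82867332 (plus strand), Foxo3 at chr10:42276696-42276945 (minus strand) and Ptma at chr1:86526307-86526556 (plus strand). Tesc lay at chr5:118027493-118027742 (plus strand), Tfeb at chr17:47736787-47737036 (plus strand), Ulk1 at chr5:110810082-110810331 (minus strand), Mvb12b at chr2:33887947-33888196 (minus strand) and Kdm7a at chr6:39206774-39207023 (minus strand).
Irs2: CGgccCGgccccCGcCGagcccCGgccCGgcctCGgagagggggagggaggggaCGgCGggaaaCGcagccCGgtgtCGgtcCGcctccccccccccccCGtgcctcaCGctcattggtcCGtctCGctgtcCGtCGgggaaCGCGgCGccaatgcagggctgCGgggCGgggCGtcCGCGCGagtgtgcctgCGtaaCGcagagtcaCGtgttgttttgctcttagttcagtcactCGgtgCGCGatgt
Mex3b: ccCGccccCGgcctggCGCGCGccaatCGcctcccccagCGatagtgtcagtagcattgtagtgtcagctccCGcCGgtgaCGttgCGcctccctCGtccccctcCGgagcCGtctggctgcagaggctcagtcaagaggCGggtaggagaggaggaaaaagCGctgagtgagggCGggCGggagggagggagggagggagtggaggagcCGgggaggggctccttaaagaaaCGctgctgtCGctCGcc
Foxo3: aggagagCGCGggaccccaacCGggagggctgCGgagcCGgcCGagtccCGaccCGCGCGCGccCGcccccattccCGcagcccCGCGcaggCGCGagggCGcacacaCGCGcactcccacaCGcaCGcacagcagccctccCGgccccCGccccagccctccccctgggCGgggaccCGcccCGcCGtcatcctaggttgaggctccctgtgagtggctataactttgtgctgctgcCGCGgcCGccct
Ptma: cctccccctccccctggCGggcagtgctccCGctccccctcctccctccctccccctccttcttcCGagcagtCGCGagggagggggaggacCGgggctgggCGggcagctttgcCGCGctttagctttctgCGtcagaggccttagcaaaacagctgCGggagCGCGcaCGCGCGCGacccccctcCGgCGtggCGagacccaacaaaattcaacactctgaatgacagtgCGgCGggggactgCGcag
Tesc: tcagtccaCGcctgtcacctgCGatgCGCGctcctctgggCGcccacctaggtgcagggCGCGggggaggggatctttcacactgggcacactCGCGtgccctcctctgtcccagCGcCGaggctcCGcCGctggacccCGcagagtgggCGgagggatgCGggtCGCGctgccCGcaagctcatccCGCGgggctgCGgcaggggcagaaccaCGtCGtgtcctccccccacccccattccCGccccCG
Tfeb: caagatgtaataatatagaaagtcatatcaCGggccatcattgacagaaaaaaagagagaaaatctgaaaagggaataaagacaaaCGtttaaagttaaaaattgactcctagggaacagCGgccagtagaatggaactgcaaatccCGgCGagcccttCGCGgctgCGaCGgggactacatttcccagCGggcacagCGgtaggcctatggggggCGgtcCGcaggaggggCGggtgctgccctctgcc
Ulk1: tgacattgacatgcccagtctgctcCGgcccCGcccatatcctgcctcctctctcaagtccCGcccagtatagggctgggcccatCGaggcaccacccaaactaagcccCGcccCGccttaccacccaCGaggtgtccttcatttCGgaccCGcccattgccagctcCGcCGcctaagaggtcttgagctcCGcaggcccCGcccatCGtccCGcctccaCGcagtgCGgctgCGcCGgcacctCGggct
Mvb12b: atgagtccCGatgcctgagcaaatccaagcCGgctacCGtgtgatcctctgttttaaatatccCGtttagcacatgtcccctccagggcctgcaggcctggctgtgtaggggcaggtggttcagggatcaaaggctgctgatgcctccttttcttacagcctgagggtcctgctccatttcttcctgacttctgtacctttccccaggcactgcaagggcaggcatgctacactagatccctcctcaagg
Kdm7a: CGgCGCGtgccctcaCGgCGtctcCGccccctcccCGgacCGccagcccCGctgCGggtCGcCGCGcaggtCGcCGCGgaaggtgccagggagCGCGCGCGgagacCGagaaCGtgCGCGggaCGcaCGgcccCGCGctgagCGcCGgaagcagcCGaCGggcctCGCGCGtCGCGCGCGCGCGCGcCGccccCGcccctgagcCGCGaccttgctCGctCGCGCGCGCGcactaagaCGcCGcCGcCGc

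Among the 5 widest, these stretches held between 22 CG dinucleotides (Mex3b) and 34 (Irs2), with a G+C content from 68.4% (Mex3b) to 76.4% (Foxo3). Kdm7a, a histone demethylase gene, had 56 CG dinucleotides at 82.0% G+C, and Mvb12b, a subunit of the endosomal sorting machinery, had 4 at 55.2% G+C. The Tfeb promoter was the poorest in G+C of the 9, with 51.6% and 14 CG dinucleotides, and the Ulk1 promoter had 67.2% and 20.

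The widest peak of the whole wild-type list covered the start of Irs2, the insulin receptor substrate that relays insulin signals to phosphatidylinositol 3-kinase. It ran for 5479 bp at chr8:11004531-11010009, from 1080 bp before the start to 4398 bp after it, and had a deposited enrichment value of 8.19. This enrichment value is the authors' own number for each peak, on a scale that is not stated. The peak at Mex3b, an RNA-binding ubiquitin ligase gene, was 4765 bp wide at chr7:82865519-82870283 with an enrichment value of 5.22, and it covered 69.5% of the gene. Foxo3, a forkhead factor that insulin signalling keeps out of the nucleus, had a peak of 4632 bp at chr10:42274052-42278683. Its enrichment value of 3.80 was far below that of Irs2. Wide peaks thus included strong and weak ones at related genes.

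The next in width were Ptma, the prothymosin alpha gene, with 4104 bp and an enrichment value of 5.48, and the predicted gene Gm52481 on chromosome Y, with 3993 bp and 4.98. Tesc, a calcium-binding protein gene, had 3709 bp and 4.68, and Esrp1, a splicing regulator of epithelial cells, had 3640 bp and 5.71. The immediate early factor Egr1 had a peak of 3545 bp with an enrichment value of 5.44, and the growth regulator Myc had 3410 bp and 4.86. Rhbdl1, a rhomboid-like gene, followed with 3351 bp and 4.37. The remaining 5 of the 15 widest were Dmpk (3330 bp), Mafa (3301 bp), Irf2bpl (3288 bp), Hmga1 (3137 bp) and Foxl2 (3024 bp). Their enrichment values ran from 4.39 (Mafa) to 7.09 (Dmpk).

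By enrichment value a different set of genes led. Ube2d3, a ubiquitin-conjugating enzyme gene, had the highest value, 12.07, at chr3:135437820-135439736, and ranked 6 among all wild-type peaks. Kmt2e, a trithorax-group gene, followed with 9.32, and Arpc1b, a subunit of the actin-nucleating Arp2/3 complex, with 8.94. Jun, a subunit of the AP-1 factor, had 8.73, Rbm15b 8.66, Kcmf1 8.44, Gas1 8.40 and Atxn2 8.23. Irs2 was the only gene among both the 15 widest and the 10 highest in enrichment. The lowest value was at Arhgap21, 2.63.

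Median width was 1962.5 bp (interquartile range 1805 to 2297) for the members and 938 bp (716 to 1194) for the narrower peaks at a single gene end, as the rule demands. The median enrichment value was 5.70 (4.998 to 6.497) in the members and 5.64 (4.89 to 6.42) in the 3053 narrower peaks, and the ranges overlapped almost wholly. The median deposited −log10 p was 15.4 and 15.2. Across the 3419 peaks, width and enrichment value had a Spearman rho of -0.0040 and a Pearson r of 0.018, and across the 366 members a rho of 0.0044. These correlations describe peaks of 1 list, which share library and depth. Width therefore ordered the peaks in a way that the authors' enrichment value did not. The pair of enrichment value and −log10 p was identical to that of at least 1 other peak in 331 of the 366 members (90.4%), so ranks within a tied group carry no order.

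**Figure D1:**
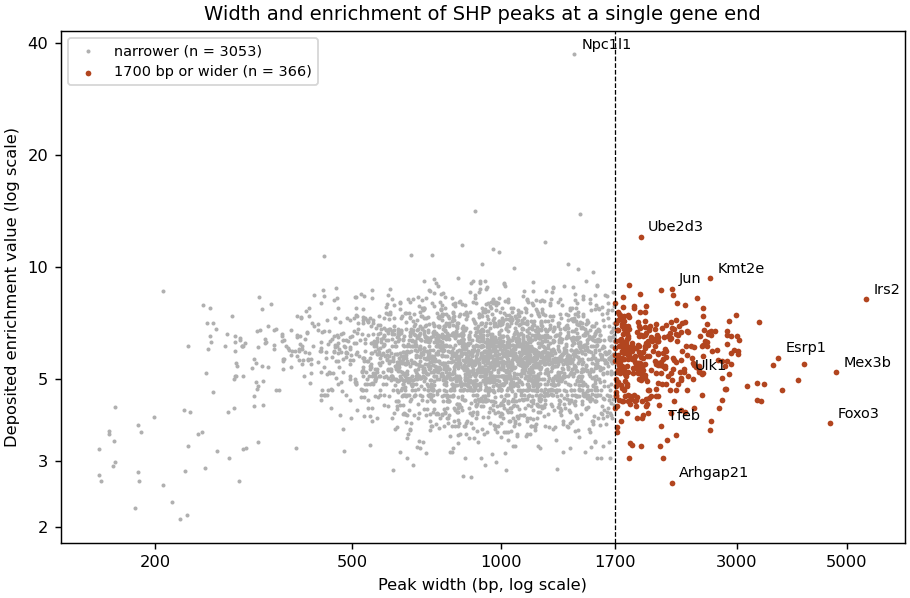
Peak width (bp, log scale) against the deposited enrichment value (log scale) for the 3419 wild-type SHP peaks at the end of exactly 1 protein-coding gene, 1 point per peak, with the 1700 bp threshold dashed. The 366 wide peaks span enrichment values from 2.63 (Arhgap21) to 12.07 (Ube2d3), and the highest value in the plot, 37.2 at Npc1l1, belongs to a narrower peak.

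At the threshold, the 3 peaks just inside were those of Rrbp1 (1700 bp, enrichment value 5.59), Gab1 (1702 bp, 4.19) and Atp8a1 (1702 bp, 5.80). The 3 just outside were Macir (1698 bp, 6.30), Rock2 (1696 bp, 6.55) and Gm38664 (1696 bp, 6.52). No gap in width separates these genes, and the threshold is a point on a continuous range.

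A gene has a start and another end, and the rule accepted either. Orientation was known for 289 of the 366 genes. For 281 of them (97.2%, 95% exact interval 94.6 to 98.8) the summit lay nearer the start. The narrower peaks gave 2389 of 2460 (97.1%). Where orientation was known, most single-end summits of either width group thus lay nearer the start than the other end. The 8 exceptions were Mid1, H1f10, Atg2a, Gm52481, Sbno2, Prrt3, Lrg1 and Dmpk. H1f10, a linker histone gene of 1062 bp, is so short that its peak of 1826 bp held the whole gene. Atg2a, which encodes a lipid transfer protein needed for autophagosome growth, had its peak of 2553 bp (enrichment value 4.52) at the far end of a 20827 bp gene. Rhbdl1 and Odf3b were the other genes that lay wholly within their peaks.

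The count of summits nearer the start used the outer annotated start of each gene. The values below use the RefSeq start nearest the summit, which in some genes lies inside the annotated gene. That start lay inside the peak for 271 of the 289 genes (93.8%), and for 2179 of 2460 narrower peaks (88.6%). Some of the other members, such as Bach2 and Setd5, had their outer annotated start inside the peak. The peak reached a median of 710 bp before the start (interquartile range 472 to 1083) and 1308 bp after it (1024 to 1605), against 309 and 608 bp in the narrower peaks. The median share of the width on the transcribed side was 64.8% in the members and 66.5% in the narrower peaks. More of the peak lay after than before the start in 208 of 271 genes (76.8%, 95% exact interval 71.3 to 81.6) and in 81.0% of narrower peaks. From peaks under 600 bp to those of 2300 bp or more, the medians went from 146 to 1049 bp before the start and from 322 to 1858 bp after it. The share on the transcribed side stayed between 64.7% and 67.9% in all 6 width classes. Wider peaks were thus larger on both sides in about the same proportion.

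Single genes departed from that split. Xbp1, the transcription factor of the unfolded protein response, had 22 bp before and 1787 bp after the start. Irf2bpl had 284 and 3003 bp, and Tfeb and Ulk1 had 147 and 1955 bp, and 313 and 2074 bp. On the opposite side, Arhgap21 had 2208 bp before and 4 bp after the start used. The zinc finger gene Zfp367 had 1966 and 128 bp, and Capzb, an actin-capping subunit, had 1750 and 153 bp. Ppara, the fatty acid-sensing nuclear receptor, had 1500 bp before and 603 bp after. In these genes the start used lay inside the annotated gene. The gene held 44.1% (Arhgap21), 45.6% (Zfp367), 71.7% (Capzb) and 69.9% (Ppara) of the peak. Relative to the outer annotated start, the larger part of the Capzb and Ppara peaks thus lay after it. The rule keeps summits near a gene end, and only those within 1 kb of the nearest start were counted, so closeness was set beforehand. Within that limit the summit lay at a median of 63 bp after the start in members (interquartile range -106 to 183, n = 269). In the narrower peaks it was 71 bp (-25 to 164). The summit lay after the start in 62.1% of members and 69.6% of narrower peaks.

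**Figure D2:**
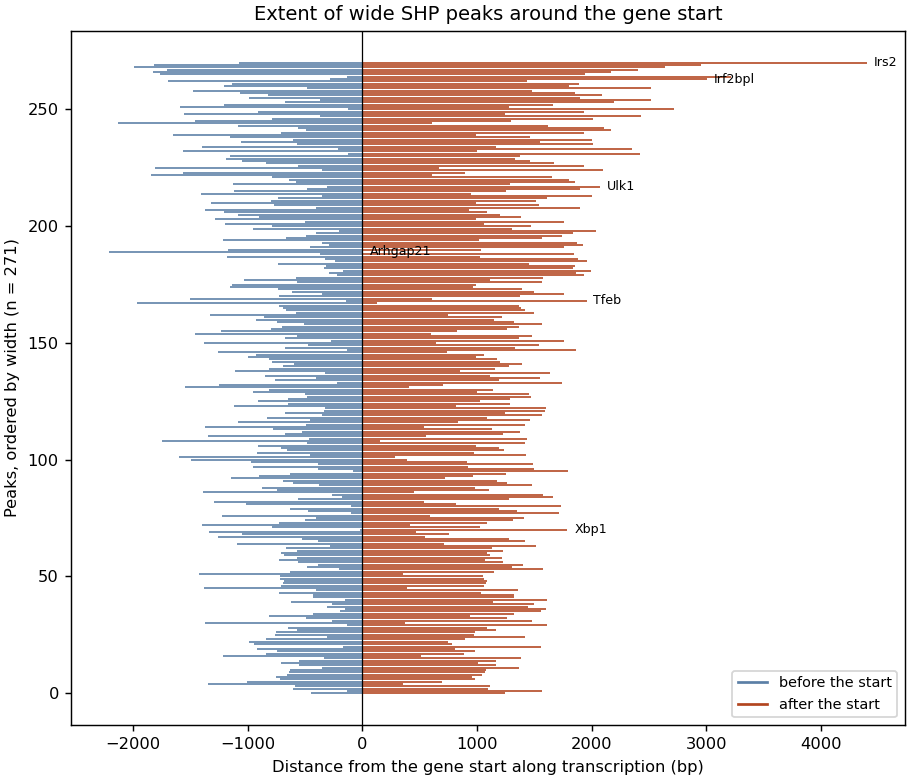
Extent of each of the 271 wide SHP peaks that hold the start of their gene, as a line from its first base before the start (left, blue) to its last base after it (right, red), in bp along transcription and ordered by width. Most lines are longer on the right, with medians of 710 bp before and 1308 bp after the start. Arhgap21 (2208 and 4 bp) and Xbp1 (22 and 1787 bp) are the extremes. The start is the RefSeq start nearest the summit, which for Arhgap21 lies inside the annotated gene.

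The sequence around the start was not used by the rule. For 269 members and 2323 narrower peaks, a RefSeq window of 300 bp (250 before and 50 after the start) had its start within 1 kb of the summit. Median G+C content was 70.3% in the members, 65.3% in the narrower peaks and 56.3% over all 21262 windows. A G+C content of 70% or more was found in 138 members (51.3%, 95% exact interval 45.2 to 57.4), in 29.4% of narrower peaks and in 12.7% of all windows. The highest values were 88.0% at Kmt2c, a histone methyltransferase gene, and 86.7% at Kif13a, a kinesin gene, and the lowest 49.0% at Vav2. By width class the median went from 59.8% under 600 bp through 62.7%, 67.0%, 69.3% and 70.2% to 70.3% at 2300 bp or more. The median thus changed little from the class of 1200 to under 1700 bp upward. The Spearman rho of width and G+C content was 0.40 (Pearson r 0.34) over all 2592 peaks with a window. Over the 269 members it was 0.041 (Pearson r 0.040). The members are cut to widths of 1700 bp or more, which can lower rho, so these values do not show a change at the threshold.

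The ratio of observed to expected CG dinucleotides, which allows for the G+C content, differed less. Its median was 0.860 in the members, 0.845 in the narrower peaks and 0.567 over all windows. A ratio of 0.6 or more, usual for CpG islands, was found in 252 of 269 members (93.7%, 95% exact interval 90.1 to 96.3), in 88.7% of narrower peaks and in 47.7% of all windows. The 17 members below 0.6 were Vav2 (0.112), Mvb12b, Gpr25, Arrdc1, Phldb1, Chad, Sdc1, Septin7, Cnot2, Fut4, Odf3b, Xbp1, Nfe2l2, Zyx, Gas1, Lrp1 and Jun (0.594). Their enrichment values ran from 4.04 (Nfe2l2) to 8.73 (Jun).

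Motifs were counted in the same windows on both strands. The Sp and Klf box GGGCGG was present in 231 of 269 members (85.9%), 78.0% of narrower peaks and 46.2% of all windows. It follows the G+C content: below 60% it was present in 61.5% of members and 51.6% of narrower peaks, and at 75% or more in 100% of 69 and 96.5% of 283. Between 60% and 70% it was less frequent in members, with 71.4% against 77.9% in the lower 5 points and 79.4% against 86.1% in the upper. From 70% to under 75% it was more frequent in members, with 95.7% against 92.8%.

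The Ets motif CCGGAAG, the core site of factors that drive many housekeeping promoters, went the other way. It was present in 15 of 269 members (5.58%), in 413 of 2323 narrower peaks (17.8%) and in 11.6% of all windows. Its share was lower in the wider classes: 23.3% under 600 bp and 22.7% from 600 to under 900 bp, then 16.5%, 10.2% and 5.29% in the next classes and 6.56% at 2300 bp or more. It was lower in members than in narrower peaks in all 5 classes of G+C content: 3.85% against 20.4% below 60%, 4.76% against 21.9%, 4.76% against 18.5%, 8.70% against 13.2%, and 4.35% against 9.89% at 75% or more. The counts in members were 1 to 6 per class. The 15 genes were Hes6, Fzd10, Tent5a, Atxn2, Slc22a23, Plekhg2, Kdm7a, Zfp36, Nfe2l2, Tiparp, Isyna1, Zfp384, Pcbp1, AI413582 and Naa30.

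**Figure D3:**
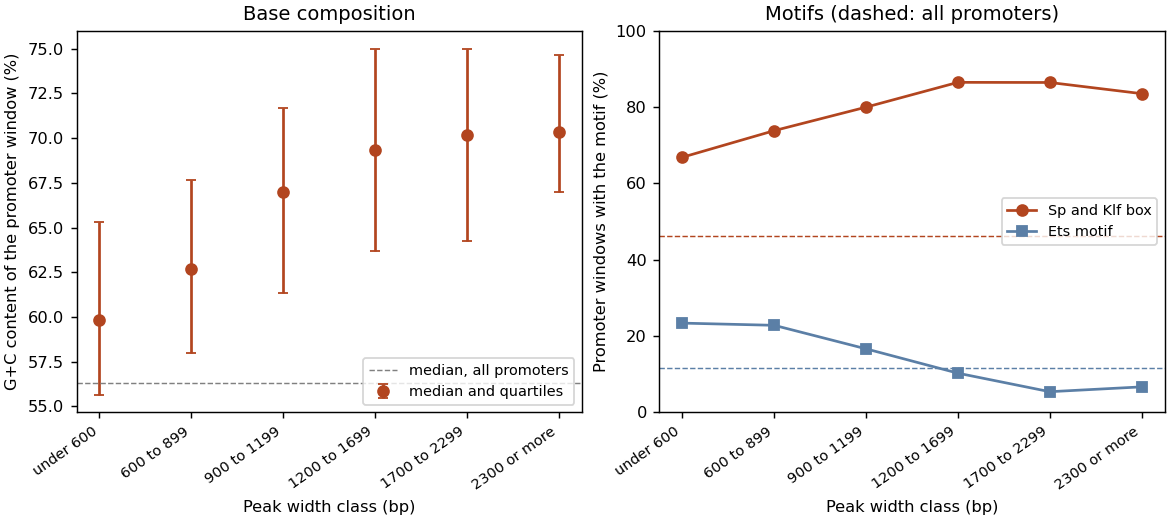
Left, G+C content (%) of the 300 bp promoter window by peak width class, as median (point) and quartiles (bars), with the median over all promoters dashed (56.3%). Right, share of windows (%) with the Sp and Klf box (circles) and the Ets motif (squares), each with its share over all promoters dashed; the Sp and Klf box goes from 66.9% to 83.6% and the Ets motif from 23.3% to 6.56% between the narrowest and the widest class.

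Other motifs were scarce or differed less. The Nfy box CCAAT was present in 32.3% of members, 37.8% of narrower peaks and 38.2% of all windows, and the TATA box TATAAA in 8.18%, 5.73% and 12.6%. The E-box CACGTG was present in 12.6%, 11.3% and 7.84%. Its longer form TCACGTGA, which contains it and which Tfeb and Mitf bind, was present in 4 members (1.49%), 2.20% and 1.23%. The orphan receptor site AAGGTCA of Nr5a2, a known partner of SHP, was present in 4 members (1.49%), 2.45% of narrower peaks and 4.08% of all windows. The sites of gut epithelial factors were rare: Hnf4 sites (GTCAAAG) were present in 0.743%, 2.11% and 3.13%, Cdx sites (TTTATGG) in 0.372%, 1.46% and 2.26%, and Gata sites (TGATAA) in 1.49%, 2.80% and 7.60%. The Hnf1 motif was in 0 members, 0 narrower peaks and 0.118% of all windows, so its absence is near the background. The Creb and Atf site TGACGTCA was present in 3.72%, 3.92% and 2.23%, and the Ap1 site TGACTCA in 1.12%, 2.67% and 4.66%. The Yy1 site AAGATGGC was present in 3.35%, 4.18% and 3.05%, and the Nrf1 site GCGCATGC in 4.09%, 6.80% and 3.51%. No motif in this paragraph, including the A- and T-rich sites of gut factors, was compared within classes of G+C content. G+C content was higher in the members, and its part in these shares was not tested. These letters describe a 300 bp window and not the rest of the peak, which is several times longer.

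The genes under wide peaks were of all lengths, and short ones made up a larger share than under narrower peaks. The median length was 27090 bp in the members and 27326 bp in the narrower peaks. Genes under 5 kb made up 73 of 366 (19.9%, 95% exact interval 15.97 to 24.41), against 10.7% of narrower peaks and 23.004% of all protein-coding genes. By width class their share was lowest from 900 to under 1200 bp, at 8.93%, and reached 17.1% from 1700 to under 2300 bp and 28.6% above. Genes over 100 kb made up 60 of 366 (16.4%, 95% exact interval 12.7 to 20.6) and 13.5% of narrower peaks (12.3 to 14.8), and these intervals overlap. By width class the share of such genes had no single direction, with 18.3% from 1200 to under 1700 bp, 18.2% from 1700 to under 2300 bp and 10.99% above. At least 50% of the gene lay under the peak for 48 members, a count that wider peaks raise by construction, and for 36 narrower peaks. Compact regulatory genes were among them, such as Cebpb (84.1% of the gene), Socs1 (89.7%), Ascl2 (77.7%), Ddit4 (77.3%), Foxl2 (74.8%), Irf2bpl (73.1%), Myc (59.5%) and Egr1 (57.8%).

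A wide peak can run into a neighbour whose end is more than 1 kb from the summit, or into a gene that does not code for protein. Such an end lay in 83 members (22.7%, 95% exact interval 18.5 to 27.3) and in 373 narrower peaks (12.2%). Per kb of peak the density was 0.106 in the members and 0.131 in the narrower peaks. The part of peak length in the larger share was not tested. In 72 of the 83 the neighbour was a long noncoding RNA gene, among them the antisense partners Foxl2os, Foxd2os, Junos and Sp3os. In 8 it coded for protein, including Hnrnpdl beside Enoph1, Parp10 beside Plec, Pawr beside Gm40755, Zfp646 beside Zfp668 and Mllt11 beside Cdc42se1. Mir7045 lay in the peak of Chd4, Mir5130 in that of Kctd12, and a transfer RNA gene in that of Plekhg2. Another wild-type peak lay within 5 kb of 27 members (7.38%) and of 8.29% of narrower peaks.

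Of the 366 genes, 233 could be placed in 9 groups by known role, with some genes in more than 1 group. The groups were assigned after the genes were known and get no comparison. DNA-binding factors were the largest, with 57 genes, a median width of 2103 bp and a median gene length of 11131 bp. Chromatin proteins and coregulators followed with 37 genes (median width 1951 bp), growth factor, kinase and phosphatase signalling with 30 (2090.5 bp), cytoskeleton, junction and adhesion genes with 29 (1901 bp), and RNA-binding and translation genes with 26 (1937.5 bp). There were 22 genes of neuronal receptors, channels and synapses, such as Kcnc1, Hcn2, Nrxn2 and Grid1, which are best known from brain. Wnt and other morphogen pathways had 19 genes, lipid metabolism and lipoprotein receptors 9, and the ubiquitin pathway 8. Within each group enrichment values spread widely, for example from 3.29 to 8.73 among the DNA-binding factors and from 3.61 to 12.07 in the ubiquitin pathway.

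Small families differed in how many of their members were wide. All 4 Mex3 genes, which encode RNA-binding ubiquitin ligases, had a wide peak: Mex3a with 2345 bp (enrichment value 5.30), Mex3b with 4765 bp (5.22), Mex3c with 2177 bp (5.10) and Mex3d with 2352 bp (7.10). Of the 4 Tsc22d leucine zipper genes, Tsc22d2 had 2987 bp (7.41), Tsc22d4 2363 bp (6.12) and Tsc22d1 1807 bp (5.66), while Tsc22d3 had no summit within 1 kb of its ends. Of the 4 Foxo genes, Foxo3 and Foxo1 (1706 bp, 4.52) were wide, Foxo6 had a narrower peak of 674 bp (5.47) and Foxo4 had none. Of the 5 Cebp genes, Cebpa had 2957 bp (5.99) and Cebpb 2863 bp (6.74), while Cebpd had a peak of 1367 bp with a higher enrichment value, 10.2. Cebpg had one of 1245 bp and Cebpe had no summit there. Of the 3 Irf2bp genes, Irf2bp1 (2243 bp) and Irf2bpl were wide and Irf2bp2 was at 1496 bp. Of 10 Frizzled receptors, Fzd7 (2800 bp), Fzd10 (2568 bp) and Fzd1 (1829 bp) were wide. These families were picked after the members were seen.

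Gene lists were counted in full, wide and narrower alike, and read against 1.67% of all protein-coding genes with a wide peak and 13.6% with a narrower one. The 43 lists held 4201 genes, of which 103 were members, and 263 members were in no list. In 27 of the 43 lists the share of wide genes was above 1.67%, so a share above it was the usual outcome. The background also includes 1463 olfactory and vomeronasal receptor genes with 0 peaks in either class. A gene with a wide and a narrower peak counts in both classes. The Klf and Sp factors had 6 of 26 genes wide (23.1%, 95% exact interval 8.97 to 43.6) and 7 narrower. The 6 were Klf13 (2917 bp), Sp3 (2452 bp), Klf16 (2077 bp), Klf9 (1889 bp), Sp4 (1805 bp) and Klf11 (1772 bp). Among immediate early genes, which respond to stimuli without new protein synthesis, 7 of 36 were wide and 10 had a narrower peak. They were Egr1, Myc, Jun (2213 bp), Ier5l (2194 bp), Zfp36 (2071 bp), Fosl2 (1958 bp) and Btg1 (1924 bp).

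The list of insulin, mTOR and AMPK signalling, the pathways that read feeding and energy state, had 9 of 50 genes wide and 11 narrower. Besides Irs2 and Foxo3 they were Fgfr3 (2917 bp), the mTOR inhibitor Ddit4 (2703 bp), the mTORC2 subunit Rictor (1957 bp), the kinase Gsk3b (1921 bp), the regulatory subunit Pik3r1 (1796 bp), Foxo1 and the adaptor Gab1. Their enrichment values ran from 3.80 (Foxo3) to 8.19 (Irs2). Of the 20 genes of this list with a single-end peak, 45.0% had a wide one. The same share was 46.2% for Klf and Sp factors, 43.8% for immediate early genes and 36.8% for the next list. It was 22.2% for coregulators and 11.1% for autophagy genes, so a high share was not particular to the insulin list. Of all single-end peaks, counted as peaks and not as genes, 10.7% were wide. The Wnt, Notch and stem cell list had 7 of 43 genes wide and 12 narrower. They were Fzd7, Ascl2 (2307 bp), the crypt stem cell factor, Tcf7l1, Gsk3b, Bcl9l, Fzd1 and Ctnnb1 (beta-catenin, 1737 bp, enrichment value 7.44).

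MAP kinase and dual-specificity phosphatase genes had 6 of 53 wide, with Dusp4 (2604 bp), Spred2 (2588 bp) and Dusp8 (1961 bp) leading, and 19 narrower. Coregulators and chromatin enzymes had 8 of 81 wide and 28 narrower. Arid1b (3013 bp), Kmt2c (2264 bp) and Chd4 (1924 bp) were the widest. The acetyltransferase gene Ep300 followed with 1912 bp and an enrichment value of 5.48. The homeobox, Pax, T-box, Sox and forkhead list had 12 of 207 wide (5.80%) and 31 narrower, led by Foxo3, Foxl2 and Foxd2 (2840 bp). Intestinal identity factors had 4 of 31, among them Ppara, Maf (2023 bp) and Foxa2 (1724 bp), and 9 narrower. Nuclear receptors had 3 of 48: Rxra (2273 bp, 6.32), the common partner of many receptors, Nr2f6 (2112 bp, 6.87) and Ppara (2104 bp, 5.54), with 8 narrower.

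In 13 lists no gene had a wide peak. At a background of 1.67%, a list of this size can have 0 without differing from it. The upper 95% exact limit was 4.40% for cytosolic ribosomal proteins, 6.27% for lysosome genes and 16.1% for the bile acid list. Only for olfactory and vomeronasal receptors was it lower than the background, at 0.252%. Those 1463 genes are part of that background, and no test was made. Cytosolic ribosomal proteins had 0 of 82 wide and 31 narrower, lysosome genes 0 of 57 and 19, mitochondrial ribosomal proteins 0 of 78 and 12, heat shock chaperones 0 of 34 and 9, and the respiratory chain 0 of 73 and 7. Lipolysis and lipid droplet genes had 0 of 29 and 8, and fat uptake, chylomicron and sterol genes 0 of 38 and 9. The bile acid list, the best known field of SHP action, had 0 of 21 wide and 1 narrower. Solute carriers, counted here for comparison, had 2 of 389 wide (Slc22a23 and the zinc exporter Slc30a1) and 51 narrower. Of the cell type marker lists, brush border genes of enterocytes had 0 of 34 wide and 5 narrower, secretory and enteroendocrine genes 0 of 33 and 1, immune genes 0 of 31 and 1, and hepatocyte genes 0 of 29 and 0. Stem and cycling cell markers had 2 of 27 wide (Ascl2 and Ephb3), neuron markers 2 of 28 (Elavl3 and Hand2) and smooth muscle and stroma 1 of 26 (Kit). A peak list does not measure expression, so these counts say which genes carry peaks and not which cells were present.

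The remaining lists had at most 6 wide genes each. The unfolded protein response had 3 of 35 wide (Atf4, Nfe2l2 and Xbp1) and 12 narrower, translation factors 4 of 51 (led by Pabpc1, Eif5 and Eif4g1) and 15, and Zbtb zinc fingers 3 of 40 (Zbtb12, Zbtb2 and Zbtb14) and 13. NF-kappa B and interferon signalling had 3 of 47 (Irf2bpl, Socs1 and Irf2bp1) and 20, TGF-beta, BMP and Hippo 2 of 42 (Tgif2 and Skil) and 15, and histones 2 of 72 (H1f10 and H1f0) and 9. Ubiquitin enzymes had 4 of 82 (led by Fbxo11, Ube2d3 and Usp1) and 31, small GTPases of the Rab, Arf and Arl families 4 of 98 (led by Rab20, Arf1 and Arf6) and 27, and splicing 2 of 62 (Ptbp1 and Hnrnpa0) and 18. Transcription machinery had 2 of 59 (Ints6 and Med26) and 16, cyclins and Cdk genes 1 of 50 (Cdkn1c) and 19, the circadian clock 1 of 23 (Npas2) and 8, and fatty acid oxidation 1 of 35 (Ppara) and 8. Zfp zinc fingers had 6 of 397 (led by Zfp687, Zfp367 and Zfp36) and 51, and Trim genes 1 of 68 (Trim8) and 8. Olfactory and vomeronasal receptors had 0 of 1463 in either class.

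**Figure D4:**
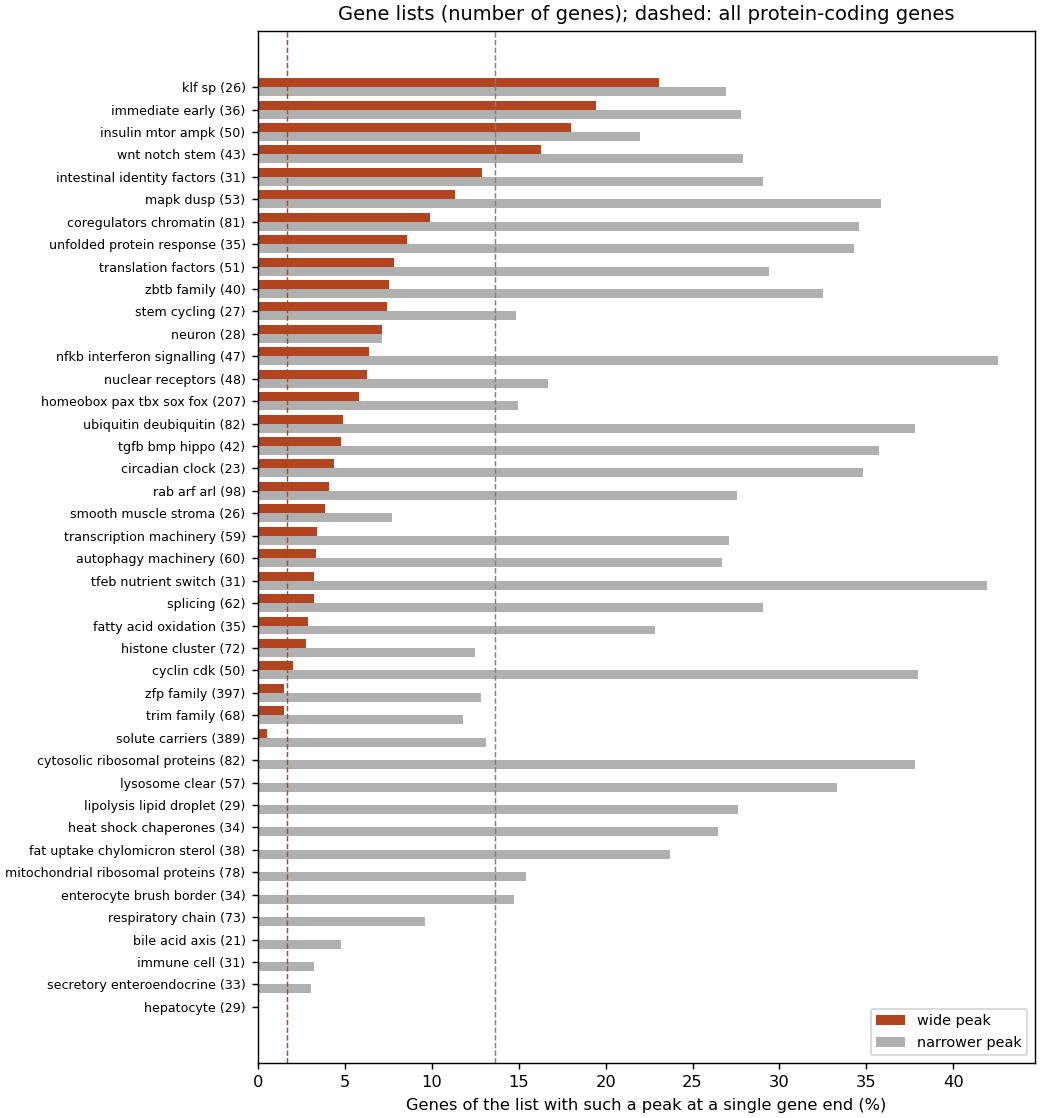
Share of the genes of each list (%) with a wide (red) or a narrower (grey) SHP peak at a single gene end; the number of genes is in parentheses, the dashed lines mark the shares over all protein-coding genes (1.67% and 13.6%), and the olfactory and vomeronasal receptor list, with 0 in both classes, is not drawn. Klf and Sp factors and immediate early genes have the longest red bars, and cytosolic ribosomal proteins and lysosome genes have long grey bars and no red one.

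Single genes of autophagy, lipid uptake and bile acid signalling, processes that SHP is known for, differed in whether they had a wide peak, a narrower one or none. Tfeb, the main factor for lysosome and autophagy genes, had a wide peak of 2103 bp at chr17:47736890-47738992. Its enrichment value, 3.74, ranked 354 of the 366 members. Ulk1, the kinase that starts autophagosome formation, had one of 2388 bp at chr5:110808007-110810394 with 5.10. Ulk1 and Atg2a were the 2 wide ones of 60 autophagy genes, next to 16 with narrower peaks. The Atg2a peak lay at the far end of its gene and not at the start. Tfeb was the 1 wide gene of 31 in the Tfeb and nutrient switch list, next to 13 with narrower peaks. Pnpla2, the adipose triglyceride lipase gene, had a narrower peak of 1407 bp (6.26). Npc1l1, the intestinal cholesterol importer, had one of 1405 bp with the highest enrichment value of the list, 37.2. Nr0b2 itself and Fgf15, the ileal hormone that signals bile acid return to the liver, had no wild-type summit within 1 kb of an end.

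In all, 646 of the 5775 peaks (11.2%) were 1700 bp or wider: the 366 members, 64 near the ends of 2 or more genes and 216 away from any end of a protein-coding gene. Median width was 1962.5, 1913.5 and 2033.5 bp in these classes, and the median enrichment value 5.70, 5.67 and 5.77. All 3 classes share the width threshold, which largely sets their widths. A deposited score of 1000, the highest given, was held by 33.9% of the members, 27 of the 64 (42.2%) and 62 of the 216 (28.7%), against 829 of the narrower single-end peaks (27.2%).

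The knockout mice lack SHP and show what the antibody gives without it. Their list held 7 peaks with a median width of 211 bp and a maximum of 369 bp, and 0 of the 366 members shared a base with any of them. The nearest member was Sox18, 340872 bp away. Over the whole wild-type list 3 of 5775 peaks (0.0519%) shared a base with a knockout peak, so a count of 0 in 366 says nothing particular about the wide ones. The lists were also filtered differently, and no test was made. Peak width depends on read depth and on the settings of the peak caller, neither of which is given in the sources used here, and their part in the widths was not tested.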

How the data were processed

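SHP ChIP-seq of jejunum and ileum from wild-type and SHP-KO mice was sequenced on a Genome Analyzer II, per the labels' protocols. CASAVA 1.4, the aligner BWA and the build mm10 are named, per the submitters' processing notes. The peak caller, its settings and the read numbers were not given in the sources used here, so depth is unknown. The authors deposited 10-column narrowPeak lists. File names put the wild-type list at an irreproducible discovery rate threshold of 0.05 and call the knockout list overlapping peaks. The deposited score, the deposited signal (called the enrichment value), the deposited −log10 p and −log10 q, and the summit offset, another deposited number, were used as the authors gave them. Input samples were not analysed here.

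Positions were converted to 1-based coordinates of mm10. Gene ends came from a RefSeq table of GRCm38.p6 with 49939 genes, 21883 of them protein-coding, and starts and strand from RefSeq promoter windows of 17491 protein-coding genes, which have the same coordinates. Where a gene had several starts, the one nearest the summit was used. Window sequence was used only where that start lay within 1 kb of the summit. The ratio of observed to expected CG is the count of CG times the window length, divided by the product of the counts of C and G. Shares carry 95% exact (Clopper-Pearson) intervals that cover counting error only. Peaks are not replicates, there was 1 list per genotype, and no test was made. Python 3.11.15, pandas 2.3.3 and SciPy 1.17.1 were used, and the scripts were tested on simulated data.

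The members, the gene lists, role groups and families were chosen with earlier results of these data known. Genes were named by rule: the 15 widest, the 10 with the highest enrichment value, up to 3 per list by width, the 3 on each side of the threshold, and Tfeb, Ulk1, Pnpla2, Npc1l1, Nr0b2 and Fgf15. A few genes that the rule names are not reported here. Further genes are named as examples chosen after their values were seen. Alternatives changed the width, the distance, the stringency of the list and the genes counted. No replicate could be left out.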

Additional observations from a re-analysis of the deposited data

How the results depend on the processing

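Of 111 values under 7 alternatives, 94 stayed within 1.5 times the count or within the 95% interval of the main value, and 17 moved. The 94 include counts of 0 that stayed at 0. These were the knockout overlap and the lysosome, respiratory chain, cytosolic ribosomal protein and brush border lists. The 2000 bp width and the −log10 p filter can only remove members, so a 0 there was fixed in advance and shows no stability. The number of peaks was 580 at a width of 1500 bp, 169 at 2000 bp, and 208 when only peaks with a −log10 p no lower than the median of the list were kept. The number of listed genes among them was 50 at 2000 bp and 61 under that −log10 p filter, against 103. The median enrichment value under that filter was 6.30, against 5.70, and the Spearman rho of enrichment value and −log10 p was 0.75 across the members. The share of peaks that reached the end of another gene was 8.46% when genes of every type counted for the single end, because peaks near a noncoding gene then leave the set. At 2000 bp the coregulator list had 2 genes, the Klf and Sp list 3, the insulin, mTOR and AMPK list 4, the Wnt list 2 and the MAP kinase list 2. Under the −log10 p filter the coregulator list had 5, the insulin list 4 and the MAP kinase list 2. At 1500 bp the coregulator list had 15, and with the summit within 500 bp the Wnt list had 4. The share with the summit nearer the start stayed within its 95% interval under all 7. So did the medians of the split around the start (61.4 to 66.5%) and of the CG ratio (0.833 to 0.882). The median promoter G+C content (69 to 71.7%, alternatives chosen after seeing the data) did so too. The ranges in parentheses are order-statistic 95% intervals of the medians in the main setting. Overlap with the 7 knockout peaks was 0 throughout, a count at its floor that cannot show stability. No paired analysis was possible because there is 1 list per genotype and no test. Read depth was unknown, and the spread between the 3 sets was not analysed here.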
